A study of Mus musculus with 19 samples.

Results

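Immediate early genes are induced within minutes of a stimulus, and 10 of them were followed here across the mouse prostate: Fos, Fosb, Jun, Junb, Egr1, Atf3, Ier2, Dusp1, Nr4a1 and Zfp36. They are 10 of the 18193 genes for which the array carried a probe set with 1 gene symbol. Only probe sets annotated to a single member were used, and the probe set with the highest mean over all 19 arrays stood for the gene. Jun was the 1 member with several probe sets, so the 10 genes had 11. The mice were C57BL/6J, began the diet at 8 weeks of age, and ate either a control diet or a high fat diet (HFD) freely for 12 weeks, with 5 mice per diet. RNA from whole ventral (VP) and dorsolateral (DLP) prostate lobes, which had been put in RNase-free saline and frozen, was hybridized to one-colour 3′ expression arrays. VP was measured on 5 control and 5 HFD arrays, and DLP on 5 control and 4 HFD arrays. The array numbers below are the replicate numbers of the titles, which do not say which mouse an array came from.

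These genes need no new protein to be switched on. Signals that reach the MAP kinase, calcium or cyclic AMP pathways activate factors already bound at their promoters, such as CREB and the serum response factor with its partners, and the transcripts are short-lived. Fos, Fosb, Jun, Junb and Atf3 encode subunits of AP-1 and related leucine zipper dimers, Egr1 and Nr4a1 encode other transcription factors, and Dusp1 and Zfp36 encode a phosphatase and an mRNA-decay factor that end the response. Ier2 encodes a small nuclear protein. They answer growth factors, nerve and hormone signals and stress, and they are also known to be induced while a tissue is dissected.

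Promoter sequences are shown because members that move together across arrays can be set beside the motifs they hold in common. RefSeq promoter sequences (assembly GRCm38.p6) were matched for 8 of the 10 members, all but Egr1 and Ier2, and the 250 bases upstream of the start were searched on both strands. The core of the cyclic AMP response element, TGACG, was found in 6 of 8 (Fos, Fosb, Junb, Atf3, Dusp1 and Nr4a1), against 17.8% of the 32851 promoters in the table. Nr4a1 held 4 matches, Dusp1 3 and Fos 2. In the lines below, each written 5′ to 3′ on the strand of the gene, capitals mark TGACG, its reverse complement CGTCA, or the longer TGACNTCA. The window covers the 120 bases just upstream of the start, except for Dusp1, where it runs from 200 to 81 bases upstream.

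Fos, chr12:85473770-85473889, plus strand: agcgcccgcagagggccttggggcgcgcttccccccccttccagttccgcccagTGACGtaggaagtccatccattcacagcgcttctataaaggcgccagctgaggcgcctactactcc
Jun, chr4:95052223-95052342, minus strand: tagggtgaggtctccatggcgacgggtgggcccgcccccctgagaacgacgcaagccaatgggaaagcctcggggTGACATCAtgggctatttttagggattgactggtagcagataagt
Atf3, chr1:191183334-191183453, minus strand: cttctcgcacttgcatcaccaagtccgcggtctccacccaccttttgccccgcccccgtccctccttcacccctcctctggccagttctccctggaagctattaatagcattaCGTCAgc
Dusp1, chr17:26508553-26508672, minus strand: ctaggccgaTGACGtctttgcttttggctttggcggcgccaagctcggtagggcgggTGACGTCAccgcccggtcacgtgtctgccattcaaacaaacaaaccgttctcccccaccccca
Nr4a1, chr15:101266726-101266845, plus strand: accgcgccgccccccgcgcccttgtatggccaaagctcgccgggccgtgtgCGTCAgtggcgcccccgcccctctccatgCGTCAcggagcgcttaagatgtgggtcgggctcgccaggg

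The longer pattern TGACNTCA was matched in Jun as TGACATCA, 45 to 38 bases upstream. In Dusp1 it was matched as TGACGTCA, 143 to 136 bases upstream, and it occurred in 7.49% of all promoters. The Dusp1 match contains TGACG on both strands, so its TGACG matches overlap there. TGANTCA, an AP-1 pattern, was matched in 0 of 8, against 6.75% of all promoters. That count leaves out TGACNTCA and any other site that AP-1 or related dimers may bind. Within the 250 bases searched, the CArG box, the serum response factor motif, was matched in Zfp36 alone of the 8, against 1.47% of all promoters. Sites farther upstream, and those of Egr1 and Ier2, were not searched. The Egr motif GCGNGGGCG was matched in Fosb, Nr4a1 and Zfp36, against 4.7%. TATAAA was matched in Fos, against 12.4%, and CCAAT in Jun and Junb, against 33.8%. A match describes letters in this window and says nothing of binding.

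Values are log2 levels made from deposited log10 values, and the array median was 1.85 on every array because the deposited values had the same distribution on all 19. A gene was tested when it lay above the array median on at least 4 arrays, which held for 11728 genes and for 9 of the 10 members. Fosb, an AP-1 subunit, was above it on 3 arrays (2 of control DLP and 1 of HFD DLP) and was left out of the fit. Levels of different genes come from different probes and are not compared with each other. The lobes expressed prostate luminal markers, with a summed level of the 9 measured luminal genes between 11.46 and 12.17. Control VP 4 stood apart in a hybridization control, with a bioB mean of 1.13 against 3.9 to 4.92 on the other arrays. HFD VP 3 had the highest summed level of the macrophage markers, at 8.53. As these are whole lobes, fewer cells of a type and less RNA per cell cannot be told apart.

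Fos, the AP-1 subunit most used as a marker of recent stimulation, ranged over more than 4 log2 units. In VP it was at 3.05, 3.01, 5.19, 5.62 and 4.08 on control arrays 1 to 5, and at 2.63, 3.21, 4.58, 3.47 and 2.17 on HFD arrays 1 to 5. In DLP it was at 6.71, 4.83, 3.81, 5.89 and 4.20 on control arrays 1 to 5, and at 3.79, 4.03, 6.65 and 3.33 on HFD arrays 1 to 4. Control VP 3 and 4, HFD VP 3, control DLP 1 and 4 and HFD DLP 3 were the high arrays, and all 4 groups overlapped. The group means were 4.19 ± 1.20 (SD, n = 5), 3.21 ± 0.92 (SD, n = 5), 5.09 ± 1.20 (SD, n = 5) and 4.45 ± 1.50 (SD, n = 4) in the same order. Fosb, its close relative, was near the bottom of the range, with group means between 1.08 and 1.48. Its highest values, 1.95, 1.93 and 1.88, were on control DLP 1, HFD DLP 3 and control DLP 4, arrays that were also high for Fos.

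Jun, the main dimer partner of Fos, separated the lobes more clearly. In VP it was at 3.20, 3.24, 3.66, 5.17 and 3.14 on the control arrays, and at 2.86, 2.98, 3.62, 3.49 and 2.88 on the HFD arrays. In DLP it was at 5.25, 5.25, 4.17, 5.44 and 4.05 on the control arrays, and at 4.49, 4.32, 5.03 and 4.49 on the HFD arrays. On this probe set, apart from control VP 4, every VP array lay below every DLP array. On the second Jun probe set, control DLP 3 was at 3.32, below control VP 3 at 3.81. Junb, a Jun relative that is a weaker activator, had group means between 3.40 and 3.62, and its highest values were 4.24 on control DLP 4 and 4.14 on control DLP 1. Atf3, a stress-induced partner of Jun, was at 3.17, 2.93, 4.04, 5.89 and 2.00 on control VP arrays and between 2.82 and 3.68 in HFD VP. In DLP, Atf3 ran from 3.20 to 4.71 in control mice and from 3.42 to 4.59 in HFD mice. Control VP 4 and 5 therefore held the highest and the lowest Atf3 of all 19 arrays within 1 group.

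Egr1, a zinc finger transcription factor, was at 5.51, 4.42, 6.23, 6.57 and 3.94 in control VP and at 4.87, 4.91, 6.59, 5.11 and 3.61 in HFD VP. In DLP it was at 7.71, 6.36, 5.94, 7.28 and 5.47 in control mice and at 6.20, 5.74, 7.17 and 4.78 in HFD mice. The high arrays were again the ones that were high for Fos. Nr4a1, the orphan nuclear receptor Nur77, was at 3.26, 2.84, 3.64, 5.64 and 3.32 in control VP and at 3.61, 2.82, 3.70, 3.57 and 2.89 in HFD VP. In DLP it was at 6.09, 5.58, 4.98, 6.38 and 4.65 in control mice and at 5.00, 4.55, 6.08 and 4.46 in HFD mice. Control VP 4 was the 1 VP array that reached the DLP range for this gene.

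Dusp1, the phosphatase that inactivates MAP kinases, was at 3.94, 4.05, 4.83, 5.97 and 3.67 in control VP and at 4.00, 4.07, 5.08, 4.42 and 3.70 in HFD VP. In DLP it was at 6.33, 5.24, 4.05, 6.06 and 4.17 in control mice and at 4.66, 4.20, 6.13 and 3.76 in HFD mice. Its groups overlapped over most of their range. Zfp36, tristetraprolin, which binds AU-rich messages and brings about their decay, was at 3.95, 4.40, 4.75, 5.19 and 4.17 in control VP and between 4.08 and 4.51 in HFD VP. In DLP, Zfp36 was at 4.29, 3.47, 3.27, 4.28 and 3.35 in control mice and at 3.83, 3.82, 4.22 and 3.48 in HFD mice. Ier2 was at 5.79, 5.85, 6.16, 5.51 and 5.80 in control VP, at 5.86, 6.33, 5.91, 5.94 and 5.69 in HFD VP, at 5.49, 5.09, 4.99, 5.34 and 5.12 in control DLP, and at 4.98, 5.18, 5.53 and 5.00 in HFD DLP. For Ier2 the VP arrays were the high ones, and control VP 4 was the lowest of its group.

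**Figure D1:**
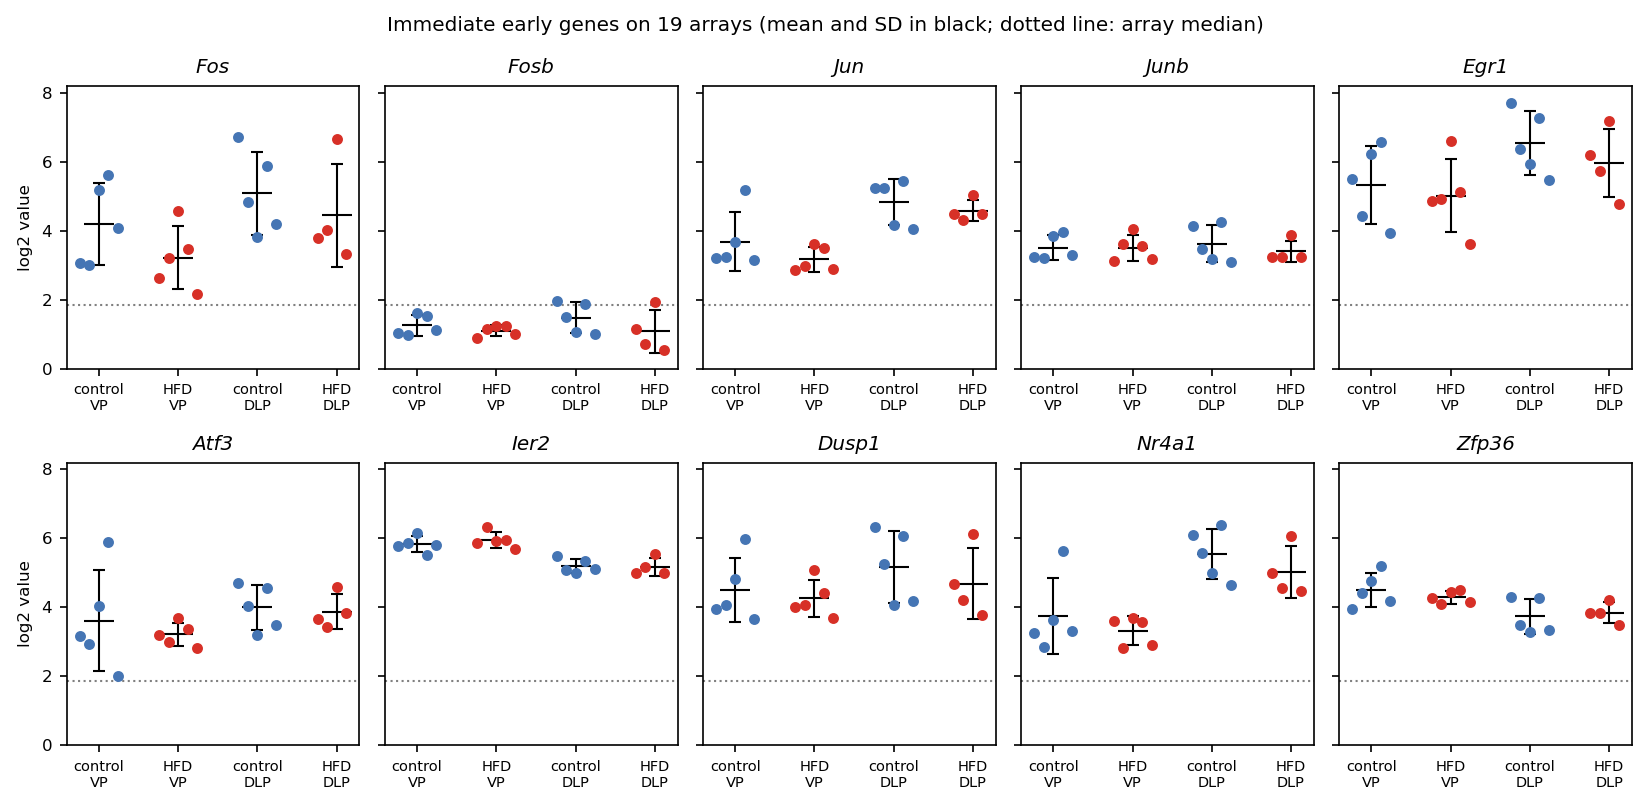
Log2 level (y axis) of each of the 10 immediate early genes on every array, 1 panel per gene, with arrays grouped by diet and lobe on the x axis; points are arrays (blue control, red HFD), black bars are the group mean and SD, and the dotted line is the array median. Fos spans 2.17 to 6.71 with all 4 groups overlapping, whereas every DLP array of Ier2 but HFD DLP 3 lies below the lowest VP array at 5.51.

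The comparison of diets asked whether 12 weeks of high fat feeding shifted these genes in either lobe. In VP, 0 of 9 tested members passed (limma, Benjamini-Hochberg over all genes, threshold 0.05), where 1.11% of all genes did, 0.529% higher and 0.58% lower. Neither did any member have an unadjusted limma p under 0.05, against 1786 of the 11728 genes. The values were lower on HFD for 8 of 9, with a median log2 difference of -0.32 against 0.01 over all genes. As the members deviated together across arrays, these 8 are not separate results. Fos had the largest difference, -0.98 ± 0.67 (SE), with a 95% interval from -2.36 to 0.41, an adjusted limma p of 0.51 and an exact permutation p of 0.2. Jun differed by -0.52 ± 0.34 (SE), with an adjusted limma p of 0.49, the smallest of the 9, and Nr4a1 by -0.42 ± 0.44 (SE). Egr1, Atf3 and Dusp1 differed by -0.32, -0.40 and -0.24. Junb was at -0.01 and Ier2 at 0.12. The groups did not separate for any of the 9, as they did for 2.58% of all genes.

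Control VP 4, the array with the low bioB value, was high for most members, and leaving it out alone moved most of these differences upward. Without it, Junb, Atf3, Dusp1 and Nr4a1 were at 0.10, 0.17, 0.13 and 0.05, Egr1 at -0.01 and Fos at -0.62. The difference of Jun was -0.15 without it. HFD VP 3, which held the group maximum for 7 of 10 members, was kept in that fit. With both arrays left out, Atf3 alone turned positive, and the other tested members kept the signs they had with all arrays. In HFD VP the summed level of the adipocyte markers ran from 4.82 to 5.26, against 5.19 to 5.93 in control VP. Only 2 of the 6 adipocyte markers on the array passed the filter, and Cidec, Lep and Retn were never above the array median. The part of these markers in the members' values was not tested.

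In DLP, 0 of 9 members passed and 0% of all genes did (limma, adjusted p under 0.05). At an unadjusted limma p under 0.05 there were 0 members and 662 of all genes. Here 8 of 9 values were lower on HFD, with a median of -0.25 against 0.01 over all genes. These 8 are likewise not separate results, and the lobes may come from the same mice. Fos differed by -0.64 with a 95% interval from -2.11 to 0.83, Egr1 by -0.58, Nr4a1 by -0.51 and Dusp1 by -0.48. Zfp36 was the member with a positive value, at 0.11. Exact permutation p-values were at least 0.32, and no member's groups separated, against 3.15% of all genes. HFD DLP 3 was higher than the other 3 arrays of its group for all 10 members, and without it Fos was at -1.37 and Egr1 at -0.98. The adjusted limma p stayed at 0.37 or above for all 27 combinations of member and diet contrast under all alternatives run.

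The diet difference in DLP minus that in VP was called for 0 of 9 members (limma), against 0.00853% of all genes, and 0 members had an unadjusted p under 0.05, against 991 of all genes. Its values ran from -0.26 for Egr1 to 0.34 for Fos. The interval for Fos, from -1.69 to 2.36, was wide. A Fos level 2-fold lower on HFD lay within the interval of either lobe, so a change of that size was not excluded.

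**Figure D2:**
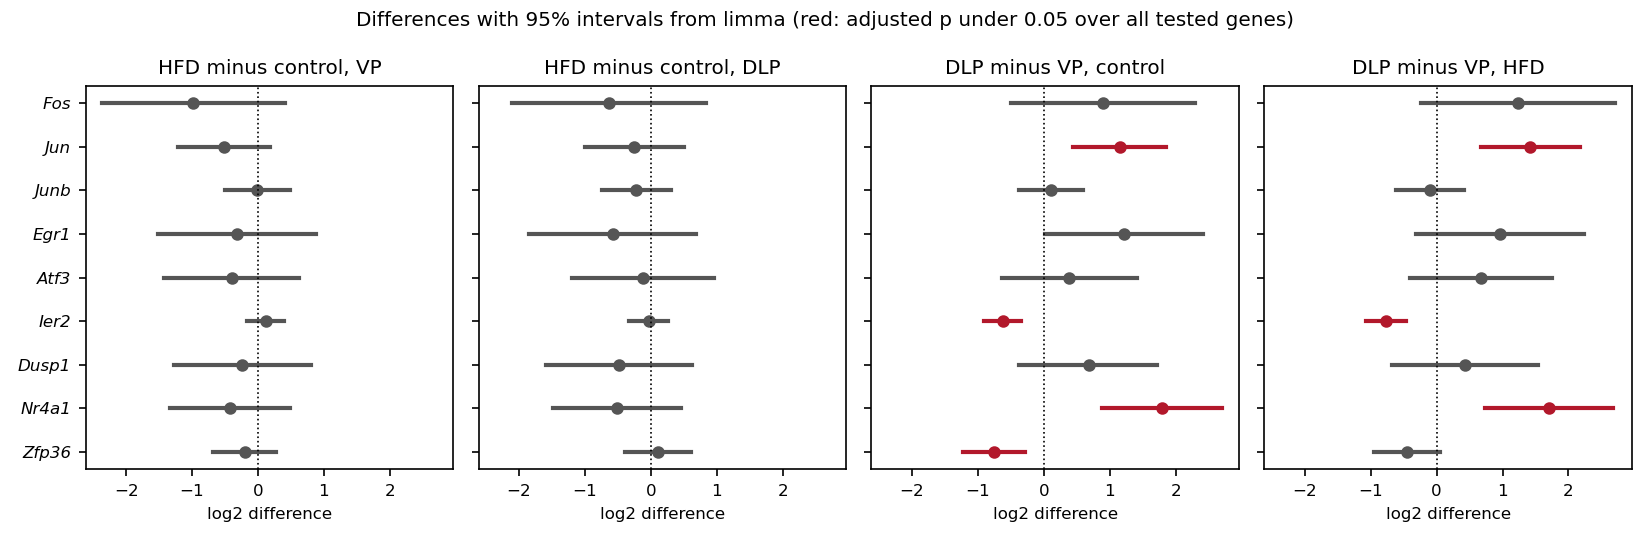
Log2 difference with its 95% interval from limma (x axis) for the 9 tested members (y axis) in each diet and lobe contrast; red marks an adjusted p under 0.05. No member passes in the diet contrasts, while Nr4a1 at 1.80 and 1.70 and Jun at 1.15 and 1.42 are higher in DLP, and Ier2 at -0.62 and -0.77 is lower.

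More members were called between lobes than between diets. In control mice 4 of 9 members passed in the comparison of DLP with VP (limma), 44.4% against 55% of all genes (28.2% higher and 26.8% lower), so the members were called no more often than genes at large. Nr4a1 rose in DLP by 1.80 ± 0.44 (SE), or 3.48-fold, with an adjusted limma p of 0.0017 and an exact permutation p of 0.032. Jun rose by 1.15 ± 0.34 (SE), or 2.22-fold, with an adjusted limma p of 0.007 and an exact permutation p of 0.056. Ier2 was lower by 0.62 in DLP (log2 difference -0.62 ± 0.13, SE), with an adjusted limma p of 0.00061. Its 5 control DLP arrays all lay below its 5 control VP arrays, and the exact permutation p of 0.0079 is the smallest that this number of arrays can give. Zfp36 was also lower, at -0.76 ± 0.23 (SE) and 1.69-fold, with an adjusted limma p of 0.0077 and an exact permutation p of 0.056. Egr1, at 1.22 ± 0.57 (SE), missed the threshold at 0.079. Fos, Dusp1, Atf3 and Junb were at 0.90, 0.68, 0.39 and 0.11 and did not pass. The groups separated for 1 of 9 members, 11.1% against 39.3% of all genes.

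With the mean of both Jun probe sets, the control difference of Jun was 0.89 with an adjusted limma p of 0.056. The second probe set alone differed by 0.63 in control mice and by 0.74 on HFD. Without control VP 4, Egr1 reached 1.53 with an adjusted p of 0.034 and Atf3 reached 0.96 with an adjusted p of 0.028, whereas without control VP 5 Atf3 was at -0.01. Nr4a1 and Ier2 passed in both diets under all alternatives run.

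On the high fat diet 3 of 9 members passed in the same comparison (limma), 33.3% against 52.9% of all genes (26.8% higher and 26.1% lower). Jun rose by 1.42 ± 0.36 (SE), or 2.67-fold, with an adjusted limma p of 0.0025, and Nr4a1 by 1.70 ± 0.46 (SE), or 3.26-fold, with an adjusted limma p of 0.0044. Ier2 was lower, at -0.77 ± 0.14 (SE) and 1.71-fold, with an adjusted limma p of 0.00013. For these 3 genes the DLP and VP arrays did not overlap (33.3% against 44.4% of all genes), and each had an exact permutation p of 0.0079. The second Jun probe set did overlap on HFD, with HFD VP 3 at 4.02 and HFD DLP 1 at 3.85. Zfp36 was at -0.45 with an adjusted p of 0.12. Fos was at 1.24 with an adjusted p of 0.15 and Egr1 at 0.96 with an adjusted p of 0.2.

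Several lists of cell type markers differed between lobes as well. In control mice 10 of 12 smooth muscle, 8 of 8 nerve and 4 of 4 basal epithelium markers were called higher in DLP (limma), against 28.2% of all genes. Of the luminal markers 6 of 9 and of the macrophage markers 3 of 7 were called lower, against 26.8% of all genes. Of the endothelial and of the fibroblast markers 1 of 7 each was called higher and 0 lower. On HFD 9 of 12 smooth muscle, 3 of 8 nerve and 2 of 4 basal markers were called higher, against 26.8% of all genes. Called lower on HFD were 7 of 9 luminal and 3 of 7 macrophage markers, against 26.1%, with 1 luminal marker higher. Endothelial and fibroblast markers had 3 and 2 of 7 called higher on HFD. The summed nerve marker level ran from 3.20 to 3.83 in control VP and from 4.41 to 8.02 in control DLP. The smooth muscle sum ran from 11.38 to 11.71 and from 11.84 to 11.99. Their part in the lobe differences of Nr4a1, Jun, Ier2 and Zfp36 was not tested.

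The order of the group means was the same for Fos, Jun, Egr1, Atf3, Dusp1 and Nr4a1, from control DLP through HFD DLP and control VP to HFD VP. For Fos each step between neighbours was smaller than the larger SD of the pair. For Nr4a1 the means were 5.54, 5.02, 3.74 and 3.32 with SDs of 0.73, 0.74, 1.10 and 0.43, and only the step between the lobes was larger than each of the SDs. Zfp36 ran from 4.49 in control VP to 3.73 in control DLP, and Ier2 from 5.95 in HFD VP to 5.17 in HFD DLP.

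Spread within groups was the other marked feature of these genes. The pooled within-group SD of Fos was 1.20 on the log2 scale, the 99.8th percentile among the 11728 tested genes, and that of Egr1 was 1.03, also the 99.8th percentile. Dusp1, Atf3, Nr4a1 and Jun had SDs of 0.90, 0.88, 0.79 and 0.61, from the 99.7th to the 98.7th percentile. Junb and Zfp36 had SDs of 0.41 and 0.40. Ier2 varied least, with an SD of 0.23 at the 76.9th percentile. The median over all tested genes was 0.17 and the 90th percentile 0.31, so 8 of 9 members were above the latter. These percentiles are a description and no test was made.

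**Figure D3:**
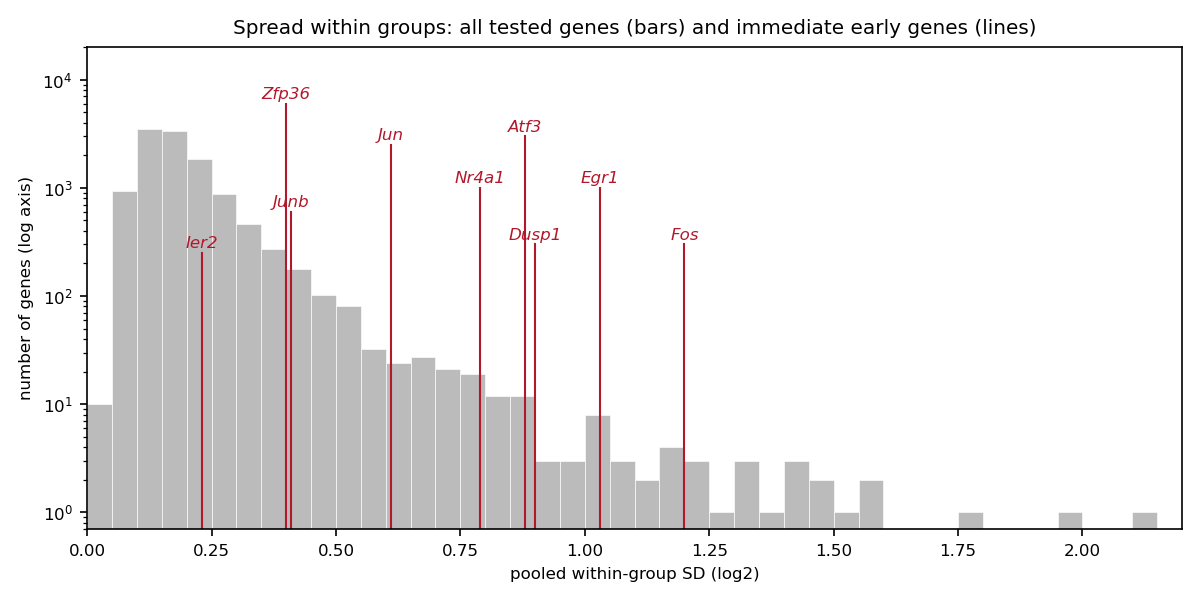
Histogram of the pooled within-group SD (x axis, log2 units) over the 11728 tested genes (y axis, number of genes, log axis), with the 9 tested members marked by lines. Of the members, 8 lie above the 90th percentile of 0.31, with Fos at 1.20, and Ier2 lies at 0.23.

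The members deviated on the same arrays. When each member's deviation from its group mean was divided by its SD and averaged over the 9 tested members, control VP 4 was highest at 1.45, followed by HFD DLP 3 at 1.24, control DLP 1 at 1.09, control DLP 4 at 0.94, HFD VP 3 at 0.76 and control VP 3 at 0.60. Control VP 4 held the group maximum for 8 of 10 members, HFD VP 3 for 7, control DLP 1 for 7 and HFD DLP 3 for 10. As deviations were taken from each group's own mean, every group held arrays above and below it by construction. The lowest means were -0.97 and -0.95 on control DLP 3 and 5, -0.78 on control VP 5 and -0.72 on HFD VP 5. On those 4 arrays 0 of the 9 tested members lay above the group mean.

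**Figure D4:**
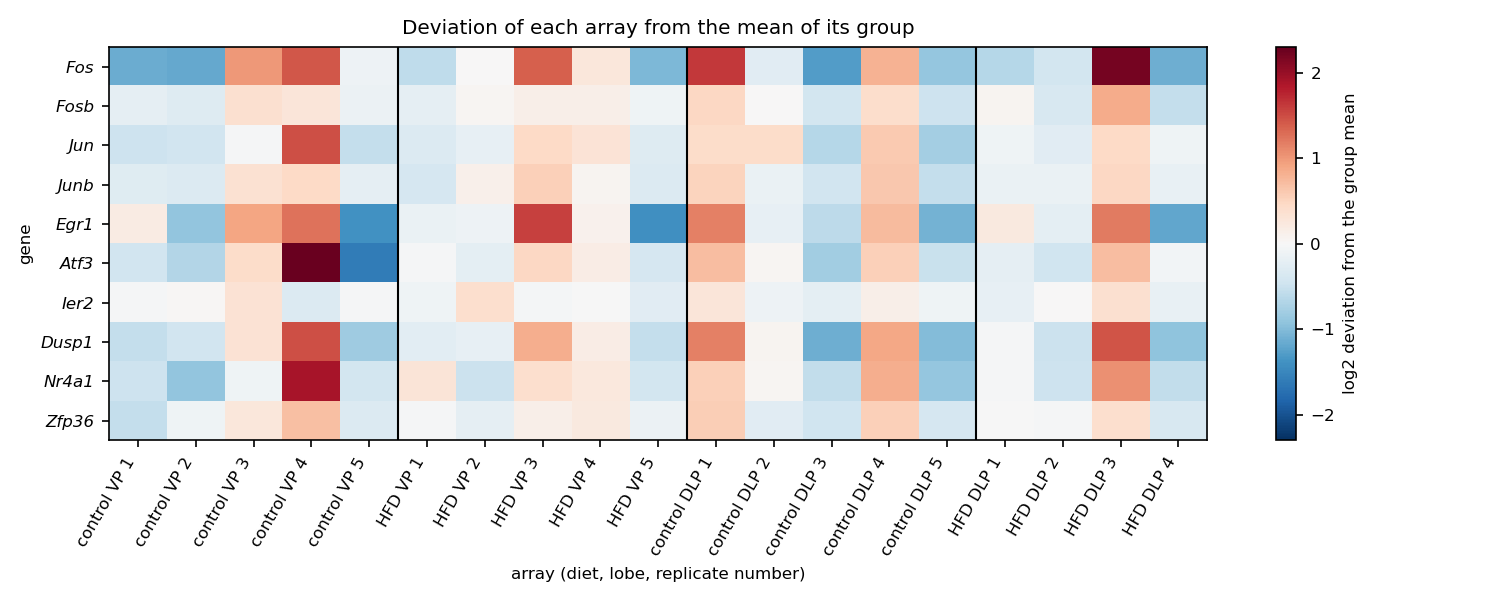
Deviation of each member from its group mean (colour, log2 units) for the 10 genes (rows) on the 19 arrays (columns, by group). Control VP 4 and HFD DLP 3 are high for most genes, with Fos at 1.43 and 2.20 above its group means, while Ier2 is at -0.31 on control VP 4.

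Co-variation was measured for 45 pairs of members in each lobe, 90 in all, as correlations of deviations from the group mean across single arrays. In DLP (9 arrays) all 45 correlations were positive, with a median Pearson r of 0.89 and a range of 0.64 to 0.98. In VP (10 arrays) 40 of 45 were positive, with a median of 0.77 and a range of -0.48 to 0.95. Over all pairs of tested genes the median was 0 in both lobes. An r above 0.7 was reached by 97.8% of member pairs in DLP against 2.9% of all gene pairs, and by 66.7% in VP against 3.16%. With Benjamini-Hochberg adjustment over the 90 pairs, 43 pairs passed in DLP by an exact permutation test within diets and 31 in VP by a permutation test with 100000 resamples. With Spearman's rho the counts were 37 and 24. These pairs include Fosb, which did not pass the filter, whereas the pairs of all genes are of tested genes. Without Fosb, 34 of 36 pairs passed in DLP with a median r of 0.89, and 27 of 36 in VP with a median of 0.78. The shares above 0.7 were then 97.2% and 66.7%.

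Fos and Junb had an r of 0.95 in VP (permutation p = 0.00037, adjusted 0.0078, rho 0.87), and 0.90 without the 2 arrays farthest from the median of Fos. Jun and Dusp1 also had an r of 0.95 in VP (permutation p = 0.00012, adjusted 0.0078, rho 0.92), and 0.89 without the 2 arrays farthest for Jun. In DLP, Dusp1 and Nr4a1 had an r of 0.97 (exact permutation p = 0.0021, adjusted 0.0094, rho 0.93), and 0.96 without the 2 arrays farthest for Dusp1. Fosb with Dusp1 was at 0.98 there, with Fosb below the array median on 6 of the 9 arrays. Dusp1, a product of the MAP kinase response that shuts it down, had the highest median r to the other members in both lobes, 0.87 in VP and 0.93 in DLP. The 2 arrays left out were chosen for each pair by its first gene, in the order of the members at the start. With them left out, the median r was 0.67 in VP and 0.85 in DLP. All 45 DLP pairs stayed positive, as did 39 of the 40 positive VP pairs, and 2 of the negative VP pairs turned positive. A few arrays nevertheless carried part of the result. Without control VP 4 the count in VP was 17, without both control VP 4 and HFD VP 3 it was 10 with a median r of 0.63, and without HFD DLP 3 the count in DLP was 19 with a median r of 0.89.

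Ier2 stood apart in VP when all 10 arrays were used. Its r to the other 9 members ran from -0.48 with Nr4a1 to 0.21 with Fosb, and 0 of 9 pairs passed by the permutation test (0 at an unadjusted p under 0.05 as well). Leaving out its pairs, 31 of 36 VP pairs passed, with a lowest r of 0.60. Part of this rested on single arrays. Without the 2 farthest arrays, Ier2 in VP had an r of 0.82 with Junb, 0.68 with Fos, 0.42 with Jun and 0.36 with Atf3. Its r was positive in 5 of 9 pairs. In the pairs with Fos, Fosb, Jun, Junb, Egr1 and Atf3 the other gene chose the arrays left out. With Dusp1, Nr4a1 and Zfp36, Ier2 chose them, and r was -0.45, -0.62 and -0.52. These r values therefore do not compare the genes on the same arrays. In DLP, with all 9 arrays, the r of Ier2 ran from 0.64 with Jun to 0.97 with Fos. There 8 of 9 pairs passed by the exact permutation test, or 3 with rho. The difference between lobes was not tested. The pairs share arrays, so they are not independent of each other.

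**Figure D5:**
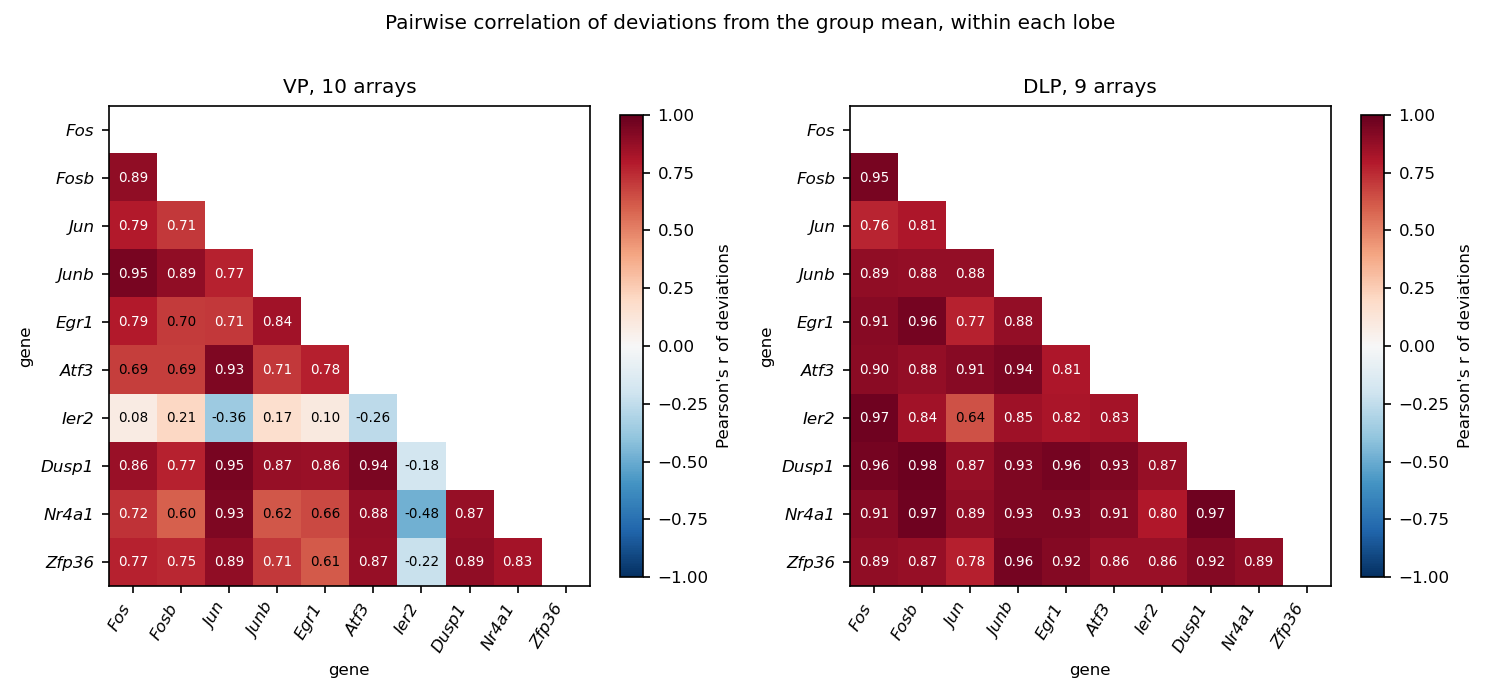
Pearson r of deviations from the group mean for all member pairs (both axes list the 10 genes), 1 panel for VP (10 arrays) and 1 for DLP (9 arrays), with colour and printed value giving r. In VP the pairs with Ier2 run from -0.48 to 0.21 while the other pairs are at 0.60 or above, and in DLP the lowest pair is at 0.64.

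Other measures moved with the members' mean deviation, and their part in it was not tested. The summed level of the 7 endothelial markers, all of them measured, had an r of 0.88 with it in VP (rho 0.84, 10 arrays, and 0.78 without control VP 4) and 0.06 in DLP (rho 0.22, 9 arrays). Without the 2 arrays farthest from the median of that sum, r was 0.67 in VP and 0.72 in DLP, so the low DLP value rested on 2 arrays. That sum was 4.96 on control VP 4, the highest of a group that ran from 4.36, and 4.85 on HFD VP 3 in a group from 4.41. The 7 macrophage markers had an r of 0.71 in VP (rho 0.82) and 0.40 in DLP (rho 0.13), and of 0.50 and -0.34 without the 2 farthest arrays. Their sums ran from 5.90 to 7.60 in control VP, 5.97 to 8.53 in HFD VP, 5.60 to 7.18 in control DLP and 5.72 to 6.16 in HFD DLP. The adipocyte sum had an r of 0.71 in VP (0.30 without control VP 4) and 0.61 in DLP, where it ran from 4.21 to 5.57 in control mice and from 4.62 to 4.75 in HFD mice. The 9 luminal markers had an r of 0.40 in VP and -0.70 in DLP. B cell markers had an r of 0.25 and 0.71, with 1 of 3 past the filter and Cd79a and Cd79b never above the array median. Nerve and smooth muscle sums had r values between -0.12 and -0.01. The remaining lists lay between -0.42 and 0.47.

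Measures of array quality gave the following. The bioB mean had an r of -0.79 with the members' mean deviation in VP (rho -0.76, and -0.67 without control VP 4) and -0.41 in DLP. A second set of bioB probe sets, which was at 5.07 on control VP 4, had r values of 0.40 and -0.45. The 3′ minus 5′ difference of Gapdh, a sign of RNA degradation, had an r of -0.01 in VP, -0.81 there without control VP 4, and -0.51 in DLP. The same difference for Actb had r values of -0.04 and 0.12. Their part in the members' values was not tested.

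The genes most like the members, by r of their deviations with the members' mean deviation over 19 arrays, were Errfi1 (0.89), a feedback inhibitor of the EGF receptor, Btg2 (0.87), an antiproliferative factor, Hspa1a (0.85), Ccn1 (0.85), a matricellular protein, and Hspa1b (0.84). Errfi1 was at 5.50, 5.19, 5.60, 6.48 and 5.03 in control VP, 5.30, 5.39, 6.40, 5.57 and 5.21 in HFD VP, 5.90, 4.95, 4.69, 6.22 and 4.72 in control DLP, and 5.20, 4.65, 5.25 and 4.49 in HFD DLP. Its highest array in each group was control VP 4, HFD VP 3, control DLP 4 and HFD DLP 3. Hspa1a and Hspa1b, inducible chaperones, are near-identical copies, so their values cannot be assigned to either with certainty. Hspa1b was at 8.43 and 8.38 on control DLP 1 and 4, against 6.35 to 7.25 on the other 3 arrays of that group. At the other end were Dhx16, an RNA helicase (-0.87), 2700038G22Rik (-0.86), Rps6, a ribosomal protein (-0.79), D130051D11Rik (-0.78) and Sco2, a mitochondrial copper chaperone (-0.78). Dhx16 had a within-group SD of 0.12 and Rps6 of 0.13, so these opposite movements were small. An r above 0.7 was found for 57 of all tested genes, or 0.486%, a count that includes the tested members themselves.

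Other genes of the response were taken by list. Of 14 other immediate early transcription factors 3 had an r above 0.7, as did 5 of 24 effectors, 3 of 10 heat shock genes, 1 of 7 AP-1 partners (Fosl2, at 0.78), 0 of 9 feedback factors and 0 of 14 upstream kinases and their targets. Above 0.5 were 7 of 14 of those transcription factors and 12 of 24 effectors, against 5.02% of all tested genes with the members included. For diet, 0 members of all 6 lists passed in either lobe or in the difference between lobes (limma). Of all genes 1.11% passed in VP, 0% in DLP and 0.00853% in the difference, so few or no calls could occur. The medians in VP were 0.10 for AP-1 partners, -0.10 for transcription factors, 0.02 for effectors, 0.12 for feedback factors, 0.04 for kinases and -0.16 for heat shock genes. In DLP they were 0.09, -0.10, -0.04, 0.05, 0 and -0.30, and all 10 heat shock genes had negative values there. The median over all genes was 0.01 in each lobe.

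Between lobes in control mice, 3 of 7 AP-1 partners were called higher in DLP and 1 lower (limma), where 28.2% of all genes were called higher and 26.8% lower. Atf4, the effector of the integrated stress response, rose by 1.20 ± 0.11 (SE), Batf3 by 1.38 and Mafk by 0.24, while Fosl2 was lower at -0.63, and the values on HFD were 1.44, 1.48, 0.25 and -0.50. Of the transcription factors 2 of 14 were called higher and 3 lower. Nr4a2, the closest relative of Nr4a1, rose by 0.97 ± 0.16 (SE) in control mice and by 0.84 on HFD, and Klf4 by 0.59. Nfil3, at -2.41, and Btg2, at -1.37, were lower. Of the effectors 6 of 24 were called higher and 8 lower, with Phlda1 at -3.08, Gadd45a at -1.59, Mcl1, an anti-apoptotic protein, at -0.51 and Rhob, a small GTPase, at 0.96. Among feedback factors 4 of 9 were called higher and 2 lower. Dusp8, at 1.39, Dusp10 and Spred1, both at 0.70, are inhibitors of MAP kinase signalling, and Zfp36l1, a relative of Zfp36, was lower at -1.30. Of the kinases and their targets 5 of 14 were called higher and 5 lower, with Map2k2 at 0.83, Mapk8, which encodes JNK1, at 0.73, Rps6ka5 at -0.61 and Map2k1 at -0.23. Of the heat shock genes 6 of 10 were called higher and 0 lower, with Hspe1 at 1.33, Hsph1 at 1.03, Hspb1 at 0.58 and Hspd1 at 0.40. On HFD the counts higher and lower were 3 and 1 for AP-1 partners, 2 and 2 for transcription factors, 5 and 7 for effectors, 4 and 3 for feedback factors, 5 and 5 for kinases, and 2 and 0 for heat shock genes, beside 26.8% and 26.1% of all genes. The kinase and effector counts lay near these shares in both diets.

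Arrays with the same number in the titles of both lobes were also compared, a look chosen after the values had been seen. Over the 9 numbers, the r between a member's VP and DLP deviations ran from -0.33 for Ier2 to 0.59 for Egr1 (exact permutation p = 0.12, adjusted over the 10 genes 0.59, rho 0.50, and 0.26 without the 2 farthest numbers). For 0 of 10 members did it pass by the exact permutation test, and 0 of 10 had an unadjusted p under 0.05. The labels do not state that equal numbers are the same mouse.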

How the data were processed

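Total RNA of the VP and DLP lobes was measured on 19 arrays, 1 sample each. The deposited values lay between 0 and 3.99 and were read as log10; MAS5 is the tool given by the submitters' processing notes. The log base and the step that made the sorted values identical on all arrays are not given in the sources used here. A value therefore rests on rank, and a shift of most genes together cannot be seen. Values were turned back to the linear scale with an assumed offset of 1 and expressed as log2, without further normalization; folds rest on this base. Of 45101 probe sets, 64 were controls, 34945 carried 1 symbol, 932 several and 9160 none, and symbols were updated by gene identifier for 34741 (GRCm38.p6 table).

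Probe sets above the array median on at least 4 arrays were kept (24867), and the one with the highest mean stood for each of 11728 genes. Group means were fitted to all arrays with limma 3.58.1 in R 4.3.3 (mean-dependent prior), with two-sided Benjamini-Hochberg adjusted p-values. Two-sided exact permutation tests over arrays stand beside them. The fit was tested on simulated data. The labels do not link arrays to mice, so p-values measure only the spread between these arrays, whose number limits the precision. The members and lists were chosen with earlier results of these data known. Named genes were all members, up to 4 passing genes of each list by smallest p (else 2), and the 5 genes with the highest and the 5 with the lowest r to the members' mean deviation; Cd79a, Cd79b, Cidec, Lep and Retn were named after their values were seen. Alternatives covered the offset, filter, probe set, prior, array weights, cyclic loess, each lobe alone, a replicate block, the threshold and each array left out. Leaving out control VP 4 and HFD VP 3 together, and 1 weight per lobe, were chosen after seeing the data.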

Additional observations from a re-analysis of the deposited data

Results flagged for a closer look

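Of 40 sets of values (10 genes in 4 groups), 3 held an array whose gap to its nearest neighbour was large for the range of its group by Dixon's criterion, and chance marks about 5% of such sets. Jun was 5.17 on control VP 4, with the next array of that group at 3.66, a gap of 0.74 of the whole range. Nr4a1 was 5.64 on the same array, with the next at 3.64 and a gap of 0.71 of the range. Junb was 3.87 on HFD DLP 3, with the next at 3.25 and a gap of 0.97 of the range.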

How the results depend on the processing

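The counts of members called stayed at 0 in the diet contrasts and their difference under every alternative run. In the lobe contrast on HFD, 5 members passed with array weights against 3, with Fos at 1.64 and Egr1 at 1.35 added (limma, adjusted p of 0.046 and 0.039). Pairs that passed in VP numbered 10 without control VP 4 and HFD VP 3 against 31. With each array left out in turn they ran from 17 to 31 in VP and from 19 to 43 in DLP. Signs turned for differences that had not been called. Under array weights the difference between lobes of the diet effect on Egr1 was 0.01 and Junb in the lobe contrast on HFD was 0.05. Without control VP 4 and HFD VP 3 that Junb value was 0.03, the diet difference of Atf3 in VP was 0.06 and its difference between lobes was -0.18. With 1 array left out, diet differences in VP ran from -0.14 to 0.10 for Junb, -0.71 to 0.04 for Egr1, -0.80 to 0.17 for Atf3, -0.44 to 0.13 for Dusp1 and -0.65 to 0.05 for Nr4a1. In DLP they ran from -0.36 to 0.06 for Atf3, -0.15 to 0.04 for Ier2 and -0.02 to 0.25 for Zfp36. Their differences between lobes ran from -0.40 to 0.74 for Fos, -0.11 to 0.42 for Jun, -0.66 to 0.14 for Egr1, -0.29 to 0.68 for Atf3, -0.73 to 0.06 for Dusp1 and -0.57 to 0.13 for Nr4a1. The lobe contrast ran from -0.05 to 0.24 for Junb and -0.01 to 0.96 for Atf3 in control mice, and from -0.26 to 0.03 for Junb and -0.05 to 0.74 for Dusp1 on HFD. The cause was not tested. With the replicate number alone as a fixed term, the counts were 0, 0, 0, 5 and 3 over the 5 contrasts against 0, 0, 0, 4 and 3. That term joins arrays of both diets, so it is not a mouse block. With number and diet together as a random block the counts were 0, 0, 0, 4 and 3 (consensus correlation 0.044). Same-numbered arrays of the lobes correlated between -0.07 and 0.19, and the highest r with another number of the same diet ran from 0.05 to 0.21. For control 1 and 2 and HFD 1, 2 and 4 the same number gave the higher r. For control 3, 4 and 5 and HFD 3 another number did. The numbers were not taken to pair the samples, as the labels do not say so, and pairing was not excluded. With 5 mice per diet, the VP and DLP arrays of a diet are likely to share mice. The main lobe tests treated those arrays as independent.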
